A study of Mus musculus with 12 samples.

Results

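The 10 genes described here encode chaperones and folding helpers of the endoplasmic reticulum (ER) and 1 transcription factor of the unfolded protein response. They were chosen by symbol, with earlier results of these data known, and are Hspa5, Hyou1, Dnajb11, Sdf2l1, Pdia4, Pdia6, Calr, Manf, Creld2 and Xbp1. Shares over all genes and values of other lists are therefore given as a scale and not as independent support. All 10 were found among the 21983 genes counted in each library, and all 10 were among the 14626 genes tested after the filter on low counts. The samples were 12 RNA-seq libraries of brain from wild-type C57BL/6 mice aged 6 weeks, with 4 libraries per group. The control group was normal mice, the ECM group was mice with experimental cerebral malaria (a mouse model of the brain disease caused by malaria parasites), and the treated group was ECM mice given artesunate, an antimalarial drug, for 4 days. The parasite, the day of infection and whether each library was a separate animal are not given in the labels, so the p-values measure the spread between these libraries, which may be partly technical.

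Secreted and membrane proteins fold in the ER with the help of chaperones that hold unfinished chains and of enzymes that form disulfide bonds. When unfolded chains accumulate there, sensors in the ER membrane, the proteins of Ern1 (IRE1), Eif2ak3 (PERK) and Atf6, start the unfolded protein response. IRE1 splices the Xbp1 transcript into the form that encodes an active transcription factor, PERK slows translation and raises ATF4, and ATF6 is cut to release another transcription factor. XBP1 and ATF6 act on the promoters of many ER chaperone genes, partly through a sequence called the ER stress response element. In brain, these chaperones are made by neurons and glia alike. Gene counts do not separate spliced from unspliced Xbp1, so the splicing step itself was not measured.

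Promoters of 8 of the 10 genes were matched by symbol to RefSeq promoters of build GRCm38.p6. The ER stress response element, searched on both strands as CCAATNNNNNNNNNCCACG in the 250 bases before the RefSeq start, was found in 4 of these 8 promoters, those of Hspa5, Pdia6, Creld2 and Calr. The same letters were found in 37 of 32851 promoters of the same length (0.113%) and in 3 of the 26 matched promoters of other ER chaperones and folding enzymes. The elements are printed in their own direction, with the CCAAT and CCACG parts in capitals, because these 4 genes share them. The genes were chosen as genes of the unfolded protein response, which acts partly through this element. The match is therefore not independent of that choice.
Hspa5: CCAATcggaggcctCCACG
Pdia6: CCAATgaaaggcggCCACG
Creld2: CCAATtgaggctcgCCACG
Calr: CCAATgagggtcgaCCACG
The element lay 65 to 47 bases upstream of the start in Hspa5 and 98 to 80 bases upstream in Pdia6, on the strand of the gene. It lay 126 to 108 bases upstream in Creld2 and 162 to 144 bases upstream in Calr, on the opposite strand. Each match is a description of the letters and was not tested as a binding site.

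The 4 promoters with the element are printed from 5′ to 3′ on the strand of the gene, with the element in capitals, to show where it sits. They are chr2:34771840-34772089 (plus strand) for Hspa5, chr12:17266339-17266588 (plus strand) for Pdia6, chr15:88819396-88819645 (plus strand) for Creld2 and chr8:84846932-84847181 (minus strand) for Calr. The starts that GENCODE M21 gives for Hspa5 (34771970), Pdia6 (17266545) and Calr (84846934) lie inside these windows, since the 2 annotations use different starts.
Hspa5: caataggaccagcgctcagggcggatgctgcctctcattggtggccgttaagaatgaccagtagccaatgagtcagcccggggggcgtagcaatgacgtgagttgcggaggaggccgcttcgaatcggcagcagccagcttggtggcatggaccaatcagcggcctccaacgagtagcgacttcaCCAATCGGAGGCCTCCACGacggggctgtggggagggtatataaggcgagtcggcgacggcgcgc
Pdia6: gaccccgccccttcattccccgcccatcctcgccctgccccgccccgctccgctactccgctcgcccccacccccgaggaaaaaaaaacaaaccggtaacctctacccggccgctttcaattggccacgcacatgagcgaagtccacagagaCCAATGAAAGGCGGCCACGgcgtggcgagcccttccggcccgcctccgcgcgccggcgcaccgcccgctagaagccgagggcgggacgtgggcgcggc
Creld2: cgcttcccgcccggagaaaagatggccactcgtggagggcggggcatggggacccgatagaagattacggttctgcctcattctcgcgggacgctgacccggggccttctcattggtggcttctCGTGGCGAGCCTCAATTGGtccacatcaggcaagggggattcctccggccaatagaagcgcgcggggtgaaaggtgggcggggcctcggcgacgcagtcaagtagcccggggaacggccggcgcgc
Calr: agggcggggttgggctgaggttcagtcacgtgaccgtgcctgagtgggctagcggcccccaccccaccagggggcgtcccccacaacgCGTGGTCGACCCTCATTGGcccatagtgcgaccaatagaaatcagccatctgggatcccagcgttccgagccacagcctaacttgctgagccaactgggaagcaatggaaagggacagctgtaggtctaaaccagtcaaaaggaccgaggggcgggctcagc
The unfolded protein response element TGACGTGG was found in 0 of the 8 promoters and in 0.563% of all promoters. The composite element of ATF4 and CHOP, TGATGNAA, was found in 0 of 8 and in 3.45% of all promoters. The plain CCAAT box, which overlaps the ER stress response element, was found in 7 of 8 promoters and in 33.8% of all.

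Libraries held 13342177 to 18886822 reads in genes. Neuron markers summed to 9889 to 13951 CPM (reads of a gene per 1000000 reads in genes, after TMM scaling of the library sizes) across the 12 libraries and were detected in all of them. Markers of T and NK cells summed to 1.23 to 2.75 CPM in control, 115 to 230 CPM in ECM and 27.7 to 62.2 CPM in treated libraries, with Cd3g, Cd8b1 and Ncr1 at 0 in all controls. Markers of monocytes and macrophages summed to 41.0 to 80.1, 237 to 499 and 77.8 to 133 CPM, with Clec4e and Clec4d at 0 in all controls. Reactive astrocyte markers summed to 273 to 404, 1193 to 1483 and 417 to 806 CPM in the same order. All 3 marker lists were highest in ECM. Endothelium markers had a median log2 fold change of 1.01 in ECM against control and -0.257 in treated against ECM. Other lists ran the opposite way. These medians were -0.945 and 0.986 for choroid plexus markers and -0.278 and 0.258 for oligodendrocyte markers. The part of any of these cell types in the results was not tested. The rank correlation between a gene's GC content and its level relative to its mean ran from -0.66 to 0.32 in control, from -0.47 to 0.54 in ECM and from 0.41 to 0.51 in treated libraries. Mitochondrial transcripts took 5.69% to 10.7%, 5.54% to 15.2% and 4.74% to 5.27% of reads. Control library 4 and ECM libraries 2 and 3 had the 3 highest mitochondrial shares and the 3 lowest GC correlations. Cerebellum markers (11 genes) summed to 456 to 2591 CPM in control, 215 to 4520 CPM in ECM and 463 to 2437 CPM in treated libraries, and their mean log2 CPM was 2.01 in control library 4, 2.17 in ECM library 1 and 1.72 in ECM library 3 against 4.26 to 7.54 in the other libraries. With that mean (the cerebellum score) as a covariate, 6 of the 10 genes were called higher in treated than in ECM libraries, as against 4 without it. Over all genes, 1795 were called in either direction with the score and 1220 without it. In bulk tissue, fewer cells of a type and less RNA per cell cannot be told apart.

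In levels per kilobase of exon, which allow genes to be compared, Calr stood highest in controls at 100.05 ± 9.11 CPM per kilobase (SD, n = 4), and Hspa5 followed at 61.5 ± 5.41. Xbp1 (25.0 ± 3.73) and Pdia6 (23.8 ± 3.97) came next, with overlapping ranges of mean ± SD. Pdia4 (18.8 ± 5.70), Dnajb11 (15.3 ± 2.52), Hyou1 (13.3 ± 1.48) and Manf (11.3 ± 1.73) had lower means, and the ranges of mean ± SD of neighbours overlapped. The range of Pdia4 also overlapped that of Pdia6, and the range of Manf overlapped that of Creld2. Creld2 (9.001 ± 0.916) and Sdf2l1 (5.68 ± 2.45) were the least abundant, and their ranges touched. In treated libraries Calr (132 ± 23.2) and Hspa5 (95.7 ± 24.4) remained the highest, with overlapping ranges. In treated libraries Sdf2l1 reached 15.8 ± 5.02 CPM per kilobase, close to Creld2 at 15.1 ± 2.32 and Manf at 16.6 ± 3.20, and the 3 ranges overlapped.

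The first question was whether ECM brains differed from control brains. In ECM against control, 0 of the 10 genes passed edgeR's quasi-likelihood test at a Benjamini-Hochberg adjusted p below 0.05, where 10.3% of all tested genes did. At an unadjusted p below 0.05 the count was 1 of 10, against 22.6% of all genes, and DESeq2 called 0. The log2 fold changes ran from -0.36 to 0.26 with a median of -0.22, beside a median of -0.03 over all genes. The second question was what artesunate-treated brains showed. Against untreated ECM, 4 of 10 genes rose, namely Sdf2l1, Creld2, Pdia6 and Calr, where 3.31% of all genes were called higher. None of the 10 fell, where 5.03% of all genes were called lower. Against control, 2 of 10 rose, Sdf2l1 and Creld2, where 1.98% of all genes were called higher. Their longest transcripts had the highest GC content of the 10 genes, 56.7% and 54.8%, against 45.6% to 53.0% in the others. None of the 10 fell, where 0.0547% of all genes were called lower. The median log2 fold change of the 10 genes was 0.66 in treated against ECM and 0.53 in treated against control, beside 0.012 and 0.004 over all genes. These 3 comparisons share libraries, so their values are given side by side and were not counted as independent of each other.

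The treated group was not uniform. Treated library 1 was the lowest of the 4 treated libraries for all 10 genes. Averaged over the 10 genes, log2 CPM relative to each gene's mean over 12 libraries was 0.015 in treated library 1 and 0.51, 0.52 and 0.71 in treated libraries 2, 3 and 4. It was -0.11, 0.013, -0.32 and -0.19 in controls 1 to 4 and -0.35, -0.32, -0.19 and -0.30 in ECM libraries 1 to 4. In treated libraries 2, 3 and 4 all 10 genes were above their own mean, while in treated library 1 it was 4 of 10, and control library 2 reached 6 of 10. Treated library 1 had a GC correlation of 0.48 and a mitochondrial share of 4.83%, both within the range of the other treated libraries. Its cerebellum score was 7.14, above the 4.26 to 6.59 of the other treated libraries. It had the lowest treated sum of reactive astrocyte markers (417 against 519 to 806 CPM). The same held for markers of monocytes and macrophages (77.8 against 113 to 133 CPM). Its sum for T and NK cells (28.8 CPM) was not the lowest. The part of these traits in its lower levels was not tested.

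**Figure D1:**
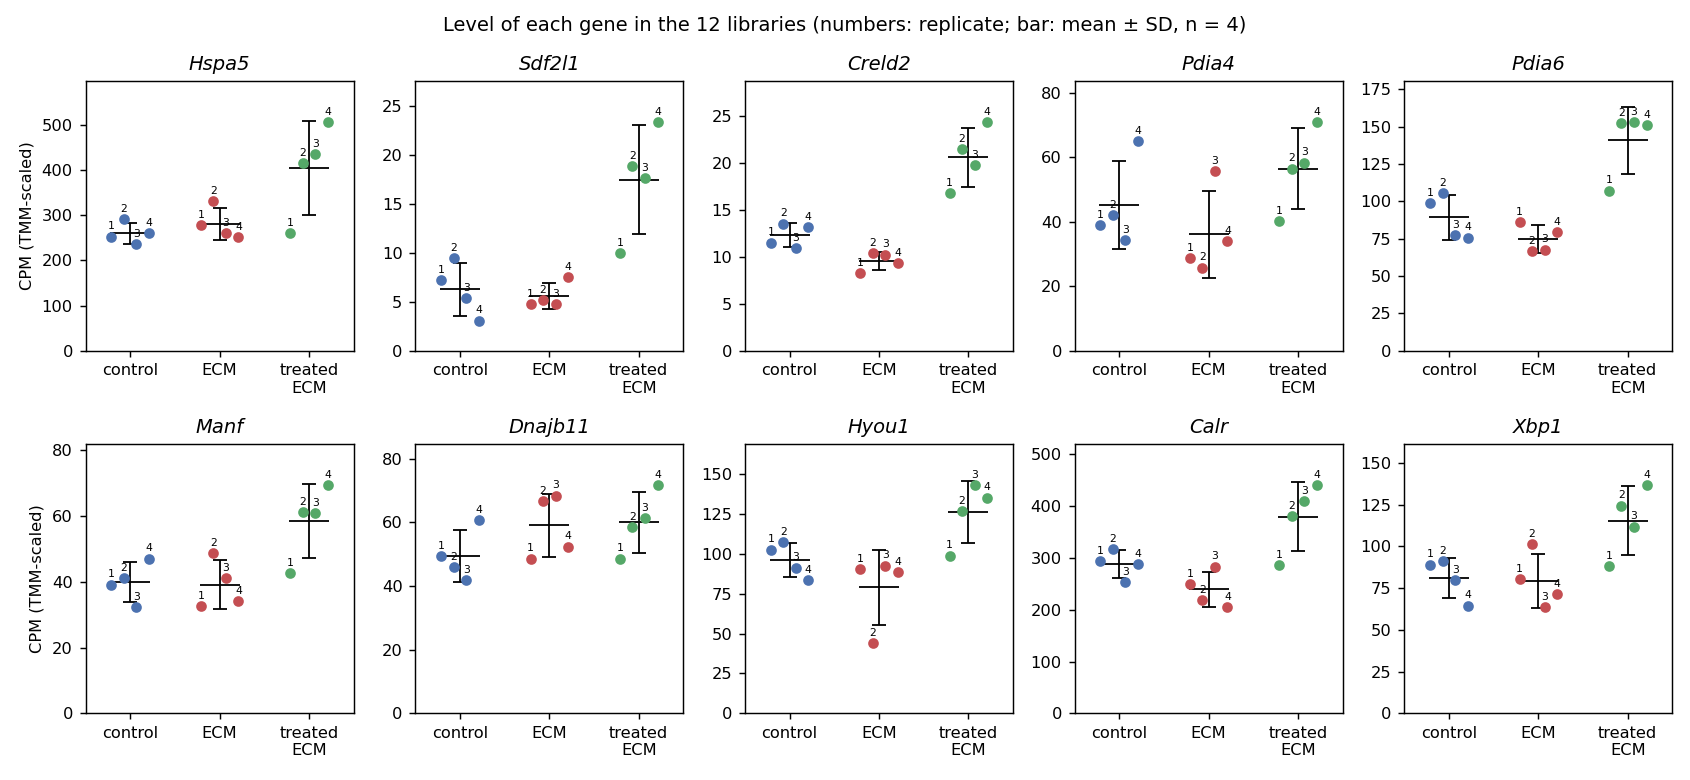
Level of each of the 10 genes in CPM (vertical axes, linear, from 0) in the 12 libraries, with replicate numbers beside the points and the mean ± SD of each group in black (n = 4). Treated libraries 2, 3 and 4 sit above the other libraries in most panels, and treated library 1 is the lowest treated point in every panel; for Sdf2l1, Creld2 and Pdia6 all 4 treated points lie above all 8 others.

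Sdf2l1 encodes a small ER protein that works in a complex with HSPA5 and DNAJB11 and keeps unfolded chains from aggregating. Located at chr16:17130138-17132383 on the minus strand (mm10, GENCODE M21), it had the largest change of the 10. Its level was 7.25, 9.45, 5.41 and 3.07 CPM in controls 1 to 4 and 4.74, 5.19, 4.76 and 7.52 CPM in ECM libraries. In treated libraries it was 9.996, 18.9, 17.7 and 23.4 CPM. All 4 treated values lay above all control and ECM values, although treated library 1 exceeded control library 2 only narrowly. The mean was 6.30 ± 2.71 CPM in control, 5.55 ± 1.33 in ECM and 17.5 ± 5.57 in treated libraries (SD, n = 4). Against ECM, Sdf2l1 rose 3.13-fold (log2 1.65 ± 0.34, standard error, adjusted p = 0.0109). Against control it rose 2.77-fold (log2 1.47 ± 0.34, adjusted p = 0.0378). In the authors' deposited table the log2 fold change of Sdf2l1 was 1.63 against ECM (adjusted p 3.56e-06) and 1.47 against control (adjusted p 0.00182). Sdf2l1 had the fewest reads of the 10 genes and the widest standard error.

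Hspa5 encodes BiP, the main Hsp70 chaperone of the ER, which also holds the sensors inactive until unfolded chains draw it away. Its level was 253, 291, 237 and 260.2 CPM in controls and 279, 331, 261 and 252 CPM in ECM. Treated libraries 1 to 4 had 261, 416, 435 and 506 CPM. Treated libraries 2 to 4 lay above all 8 other libraries, while treated library 1 lay within the range of both other groups. The means were 260.2 ± 22.9, 281 ± 35.1 and 405 ± 103 CPM (SD, n = 4) in control, ECM and treated libraries. The treated difference missed the threshold, at log2 0.53 ± 0.19 against ECM (adjusted p = 0.0981) and 0.64 ± 0.19 against control (adjusted p = 0.154). Without treated library 1 it passed in both, at 0.69 (adjusted p = 0.0319) and 0.80 (adjusted p = 0.0160). It also passed against ECM with a correction for GC content that was added after the data were seen (adjusted p = 0.0299).

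Hyou1 encodes GRP170, a large ER chaperone that loads BiP with nucleotide. It had 103, 107, 91.2 and 83.6 CPM in controls, 90.2, 44.0, 92.5 and 88.5 CPM in ECM and 98.8, 127, 143 and 135 CPM in treated libraries. ECM library 2 stood far below the rest, and all treated values exceeded all ECM values while overlapping the controls. The difference from ECM, 0.68 ± 0.22 on the log2 scale, missed the threshold (adjusted p = 0.0701), and without ECM library 2 it was 0.47 (adjusted p = 0.0723). It passed by DESeq2 (0.65, adjusted p = 0.0374), with the cerebellum score as a covariate (0.78, adjusted p = 0.0365) and without control library 4 and ECM libraries 2 and 3 together (0.49, adjusted p = 0.0428). Against control it was 0.39 ± 0.22 (adjusted p = 0.485).

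Dnajb11 encodes ERdj3, the Hsp40 partner that hands substrates to BiP. It had the smallest change of the 10 in treated against ECM, with 49.3, 45.8, 41.8 and 60.7 CPM in controls, 48.6, 66.6, 68.3 and 52.4 CPM in ECM and 48.6, 58.4, 61.3 and 71.7 CPM in treated libraries. The ranges of all 3 groups overlapped. The log2 fold change was 0.03 ± 0.17 in treated against ECM (adjusted p = 0.943), 0.28 ± 0.17 in treated against control (adjusted p = 0.516) and 0.26 ± 0.17 in ECM against control (adjusted p = 0.437). Its sign in treated against ECM turned under 6 of 21 alternative settings, among them DESeq2 and its size factors.

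Pdia6 and Pdia4 encode protein disulfide isomerases, the enzymes that make and rearrange disulfide bonds. Pdia6 (chr12:17266545-17284770, plus strand) had 98.6, 105, 77.6 and 75.6 CPM in controls and 86.3, 66.4, 67.7 and 79.2 CPM in ECM. In treated libraries it had 107, 152, 153 and 151 CPM. All 4 treated values lay above all others, with treated libraries 2 to 4 within 3 CPM of each other and treated library 1 just above the highest control. Pdia6 rose 1.88-fold against ECM (log2 0.91 ± 0.17, adjusted p = 0.00627). Against control the test was not passed (log2 0.66 ± 0.17, adjusted p = 0.0734), and it was passed without treated library 1 (adjusted p = 0.0294) and by DESeq2 (adjusted p = 0.0107). Exons of Pdia6 overlap those of Atp6v1c2 on the opposite strand. The overlap was 242 bases summed over all pairs of annotated exons, which can count the same base more than once. Reads of the 2 genes there cannot be told apart without strand information. Pdia4 had 38.9, 42.2, 34.4 and 65.1 CPM in controls, 28.7, 25.8, 55.8 and 34.1 CPM in ECM and 40.3, 56.6, 58.4 and 71.0 CPM in treated libraries. Control library 4 and ECM library 3 were the high values of their groups, and all 3 groups overlapped. The Pdia4 difference in treated against ECM was 0.65 ± 0.27 on the log2 scale (adjusted p = 0.151). It passed the test without ECM library 3 (0.93, adjusted p = 0.0482), with the cerebellum score as a covariate (0.88, adjusted p = 0.0230) and without control library 4 and ECM libraries 2 and 3 together (0.84, adjusted p = 0.0196).

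Calr encodes calreticulin, a lectin chaperone that binds sugar chains on new glycoproteins and also stores calcium. At chr8:84841850-84846934 on the minus strand, it had 294, 317, 254 and 288 CPM in controls, 249, 219, 283 and 205 CPM in ECM and 286, 379.9, 409.7 and 441 CPM in treated libraries. All treated values exceeded all ECM values, although treated library 1 exceeded ECM library 3 by less than 4 CPM, and treated library 1 lay inside the range of the controls. Calr rose 1.59-fold against ECM, from 239 ± 34.5 to 379 ± 66.8 CPM (SD, n = 4), with a log2 fold change of 0.67 ± 0.16 and an adjusted p of 0.0262. This call was lost when any 1 of ECM library 1, ECM library 2 or treated libraries 2, 3 or 4 was left out, with adjusted p-values of 0.0515 to 0.0843. It was also lost in a fit of only the 8 libraries compared (adjusted p = 0.0513) and with the replicate number as a block (adjusted p = 0.0878). Against control the difference was 0.40 ± 0.16 (adjusted p = 0.389).

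Creld2 and Manf encode small ER proteins that are in part secreted under stress. CRELD2 is a disulfide isomerase-like protein, and MANF is a neurotrophic factor that binds BiP. Creld2 (chr15:88819646-88826683, plus strand) had 11.5, 13.5, 10.96 and 13.2 CPM in controls and 8.27, 10.4, 10.2 and 9.37 CPM in ECM. In treated libraries it had 16.8, 21.5, 19.7 and 24.3 CPM. The 3 groups did not overlap at all, with ECM lowest, control between and treated highest, and Creld2 was the only gene of the 10 with this arrangement. The difference of ECM from control, -0.36 ± 0.17 on the log2 scale, missed the threshold (unadjusted p = 0.0489, adjusted p = 0.218). Libraries of ECM below all controls were found for 1 of the 10 genes and for 5.78% of all genes. Treated libraries rose 2.15-fold against ECM (log2 1.10 ± 0.17, adjusted p = 0.00225) and 1.67-fold against control (log2 0.74 ± 0.17, adjusted p = 0.0334). The authors' deposited table gives Creld2 a log2 fold change of 1.09 against ECM (adjusted p 5.22e-06). With the GC correction the change against control was 0.43 (adjusted p = 0.476) and that against ECM was 0.89 (adjusted p = 0.0196).

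Manf had 39.1, 41.1, 32.2 and 47.0 CPM in controls, 32.5, 48.8, 41.0 and 34.1 CPM in ECM and 42.7, 61.1, 60.8 and 69.4 CPM in treated libraries. Treated libraries 2 to 4 lay above all others and treated library 1 lay inside the range of both other groups. The log2 fold change was 0.58 ± 0.19 against ECM (adjusted p = 0.0734) and 0.55 ± 0.19 against control (adjusted p = 0.264). The difference from ECM passed without ECM library 2 (0.70, adjusted p = 0.0484) and without control library 4 and ECM libraries 2 and 3 together (0.81, adjusted p = 0.0162). Exons of Manf overlap those of Dcaf1 on the opposite strand, by 438 bases summed in the same way over pairs of exons. Whether the counting separated the strands is not given. Xbp1 encodes the transcription factor activated by IRE1 and is itself a target of ATF6. It had 89.0, 91.1, 79.6 and 64.5 CPM in controls, 80.4, 101, 63.7 and 71.5 CPM in ECM and 88.3, 124, 112 and 137 CPM in treated libraries. Treated libraries 2 to 4 again exceeded all 8 others and treated library 1 did not. The differences were 0.54 ± 0.18 against ECM (adjusted p = 0.0864) and 0.51 ± 0.18 against control (adjusted p = 0.312) on the log2 scale, and neither passed. Against ECM it passed without ECM library 2 (0.68, adjusted p = 0.0407) and without the same 3 libraries (0.60, adjusted p = 0.0307).

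**Figure D2:**
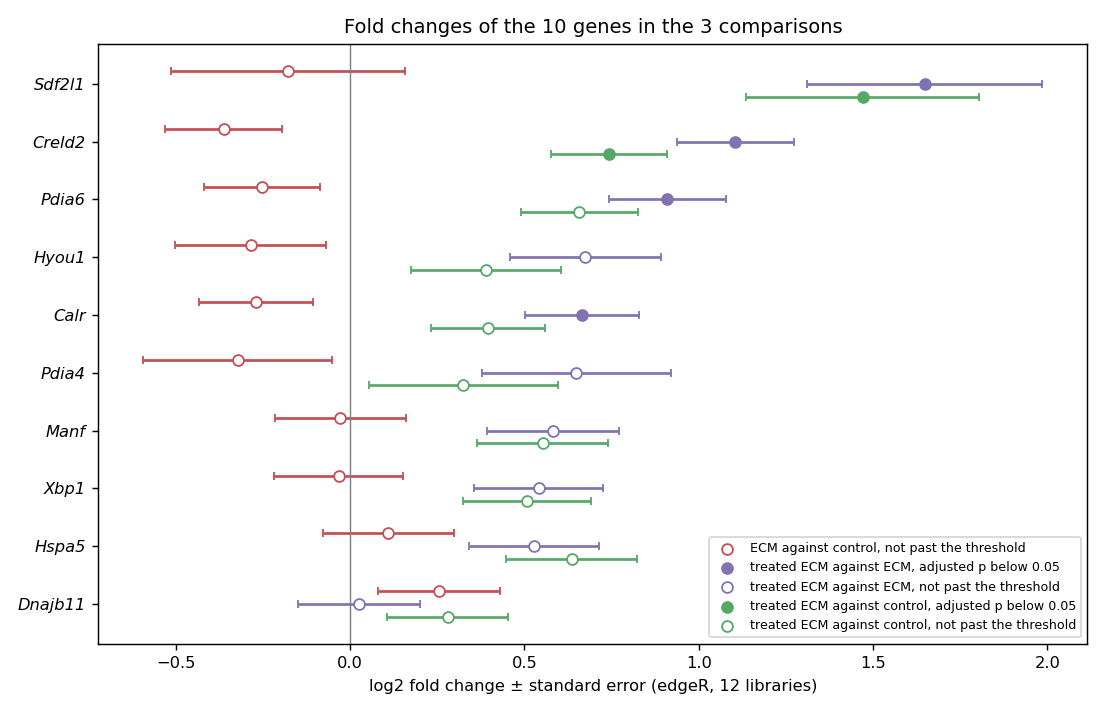
Log2 fold change with its standard error (horizontal axis) of each of the 10 genes in ECM against control (red), treated against ECM (purple) and treated against control (green), from 1 edgeR model of 12 libraries. Filled points have an adjusted p below 0.05: Sdf2l1, Creld2, Pdia6 and Calr in treated against ECM, Sdf2l1 and Creld2 in treated against control, and none in ECM against control.

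All 4 treated libraries exceeded all 4 ECM libraries for 5 of the 10 genes (Sdf2l1, Creld2, Pdia6, Hyou1 and Calr), as did 11.5% of all genes. They exceeded all 4 controls for 3 of 10 (Sdf2l1, Creld2 and Pdia6), as did 10.8% of all genes. At an unadjusted p below 0.05, 9 of 10 genes were higher in treated than in ECM libraries, against 11.4% of all genes, and 7 of 10 were higher than in control, against 6.67% of all genes. Since the 10 genes were chosen with earlier results known, the excess over these shares may partly reflect that choice. The calls of Sdf2l1, Creld2 and Pdia6 against ECM held in all 21 alternative settings. Those against control held in 10 settings for Sdf2l1 and in 12 for Creld2. Sdf2l1 lost its call without any 1 of controls 1, 3 and 4, ECM libraries 1 and 2 or treated libraries 2, 3 and 4 (adjusted p 0.0551 to 0.149), with the replicate block (0.132), in the fit of 8 libraries (0.0845) and without control library 4 and ECM libraries 2 and 3 together (0.0532). Creld2 lost it without any 1 of controls 1, 2 and 3 or treated libraries 2, 3 and 4 (adjusted p 0.0644 to 0.156), without a filter on low counts (0.0517), with the replicate block (0.0903) and with the GC correction (0.476). Without control library 4 and ECM libraries 2 and 3 together, 8 of 10 genes were called higher in treated than in ECM libraries and 1 of 10 higher than in control. Calls over all genes, in either direction, rose there too, from 1220 to 2269 against ECM and from 298 to 468 against control. With the GC correction the counts of the 10 genes were 5 and 1, and those over all genes were 2094 and 317. The part of GC content and of the mitochondrial share in the differences was not tested beyond these values.

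Among the sensors and their partners, 0 of 9 tested genes were called by edgeR in any of the 3 comparisons. Over all genes, 10.3% were called in ECM against control, and 3.31% were called higher and 5.03% lower in treated against ECM. In treated against control 1.98% of all genes were called higher and 0.0547% lower. At an unadjusted p below 0.05, 1 of the 9 was higher and 2 lower in ECM against control, where 22.6% of all genes passed. At that threshold 2 of the 9 were higher in treated against ECM, where 11.4% of all genes were, and 1 was lower in treated against control. DESeq2 called 2 of the 9 higher in treated against ECM and 0 in the others. Their median log2 fold change in treated against ECM by edgeR was 0.21. Ern1 had 12.5, 12.8, 12.7 and 13.9 CPM in controls, 11.7, 6.58, 10.001 and 9.52 CPM in ECM and 10.5, 12.2, 12.9 and 11.3 CPM in treated libraries. All ECM values of Ern1 lay below all control values, as for 5.78% of all genes. Its difference in ECM against control was -0.45 ± 0.18 on the log2 scale (adjusted p = 0.157), and it passed with the cerebellum score (-0.56, adjusted p = 0.0262) and with the GC correction (-0.53, adjusted p = 0.0419). Eif2ak3 stayed between 35.8 and 42.7 CPM in all 12 libraries. Atf6 had 111 ± 24.8, 109.9 ± 31.3 and 89.5 ± 11.6 CPM in control, ECM and treated libraries (SD, n = 4). In treated against ECM the log2 fold changes were 0.31 ± 0.18 for Ern1, -0.03 ± 0.12 for Eif2ak3 and -0.29 ± 0.21 for Atf6 (adjusted p = 0.311, 0.908 and 0.397). The activity of these sensors is set at the protein level, which was not measured. After the GC correction 3 of the 9 were called lower in ECM against control and 2 higher in treated against ECM. Over all genes, 2614 and 2094 were called there in either direction. In treated against ECM 3 of the 9 were called higher without control library 4 and ECM libraries 2 and 3. Over all genes, 2269 were called there in either direction.

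On the PERK arm, Atf4, which encodes the factor translated when PERK is active, had 137, 127, 107 and 51.5 CPM in controls, 85.0, 102, 47.0 and 117 CPM in ECM and 143, 139, 156 and 169.7 CPM in treated libraries. All treated values lay above all others, and control library 4 and ECM library 3 were the low values of their groups. The log2 fold change of Atf4 was 0.79 ± 0.30 against ECM (adjusted p = 0.117) and 0.52 ± 0.30 against control (adjusted p = 0.494). The difference from ECM passed without control library 4 (0.78, adjusted p = 0.0387) and without control library 4 and ECM libraries 2 and 3 together (0.58, adjusted p = 0.0314). Ddit3, which encodes the death-associated factor CHOP, had 19.5 ± 1.16, 20.1 ± 1.53 and 23.3 ± 1.28 CPM in control, ECM and treated libraries, and its largest difference, against control, was 0.25 ± 0.13 on the log2 scale (adjusted p = 0.466). Atf3, which encodes a stress-induced factor, had 0.640, 1.25, 2.05 and 0.683 CPM in controls, 5.87, 6.42, 5.87 and 12.6 CPM in ECM and 4.13, 7.42, 8.75 and 9.82 CPM in treated libraries. Atf3 rose in ECM against control (log2 2.75 ± 0.43, adjusted p = 0.000737) and in treated against control (log2 2.71 ± 0.43, adjusted p = 0.00265), while treated and ECM libraries differed by -0.04 ± 0.38 (adjusted p = 0.961).

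Among 38 tested genes of the ATF4 and CHOP branch, 5 rose and 2 fell in ECM against control, where 10.3% of all genes were called in either direction, with a median log2 fold change of 0.06. Besides Atf3, Ppp1r15a, the phosphatase subunit that ends the PERK signal, rose in ECM (1.25 ± 0.23, adjusted p = 0.00311), as did the amino acid transporter subunit Slc3a2 (0.62 ± 0.14, adjusted p = 0.0137). Cebpg, a partner of ATF4, fell (-0.73 ± 0.13, adjusted p = 0.00274). In treated against ECM 2 rose and 1 fell, near the 3.31% called higher and 5.03% called lower over all genes, with a median of 0.09. Cebpg rose (0.76 ± 0.13, adjusted p = 0.00494), the mitochondrial folate enzyme Mthfd2 rose (0.64 ± 0.17, adjusted p = 0.0329), and Ppp1r15a fell (-0.90 ± 0.25, adjusted p = 0.0416). Ppp1r15a is among the genes whose deposited counts stood in the wrong columns, and it was fitted without treated library 4. Cebpg thus ran from 47.1 ± 6.39 CPM in control to 28.5 ± 2.08 in ECM and 48.1 ± 1.79 in treated libraries. In treated against control 2 rose, Atf3 and the tryptophanyl-tRNA synthetase gene Wars (0.75 ± 0.17, adjusted p = 0.0302), and 0 fell. With the GC correction the counts in treated against ECM were 4 higher and 4 lower. Of the other kinases that act on the same translation factor, Eif2ak2, the kinase PKR that interferon induces, rose in ECM (2.04 ± 0.29, adjusted p = 0.000326) and fell in treated against ECM (-1.56 ± 0.28, adjusted p = 0.00575).

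Few other genes of the ER folding machinery were called. Of 32 other ER chaperones and folding enzymes, 0 rose and 1 fell in treated against ECM by edgeR. The log2 fold changes ran from -1.19 to 1.03, with a median of -0.11. At an unadjusted p below 0.05, 5 were higher and 5 lower in that comparison, and DESeq2 called 2 higher and 3 lower. In treated against control 0 were called, with a median of -0.04 (2 at an unadjusted p below 0.05, 1 by DESeq2). Over all genes, 3.31% were called higher and 5.03% lower in treated against ECM. The gene that fell by edgeR was Cdnf, which encodes a relative of MANF (-0.92 ± 0.26, adjusted p = 0.0447). It was also the only gene of the list that rose by edgeR in ECM against control (0.86 ± 0.26, adjusted p = 0.0491). Among well-known targets of the response, named here after their values were seen, Hsp90b1, the ER Hsp90, had 358, 389, 387 and 789 CPM in controls, 393, 427, 620.1 and 279 CPM in ECM and 336, 405, 393 and 458 CPM in treated libraries. Its treated values lay inside the range of ECM and overlapped the controls, with treated library 1 below all controls. The log2 fold change of Hsp90b1 against ECM was -0.11 ± 0.28 (adjusted p = 0.835). Dnajb9, an ER Hsp40 and a typical XBP1 target, had 54.6, 51.1, 61.5 and 147 CPM in controls, 61.6, 121, 105 and 51.6 CPM in ECM and 55.9, 49.7, 46.4 and 54.3 CPM in treated libraries. Its log2 fold change against ECM was -0.72 ± 0.34 (adjusted p = 0.206), with control library 4 and ECM libraries 2 and 3 the high values. Canx, the membrane-bound lectin partner of calreticulin, differed by -0.04 ± 0.17 (adjusted p = 0.918), and Pdia3, the isomerase that works with both, by -0.20 ± 0.20 (adjusted p = 0.535). With the GC correction 2 of the 32 were called higher and 1 lower in treated against ECM, and without control library 4 and ECM libraries 2 and 3 the counts were 2 and 2.

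**Figure D3:**
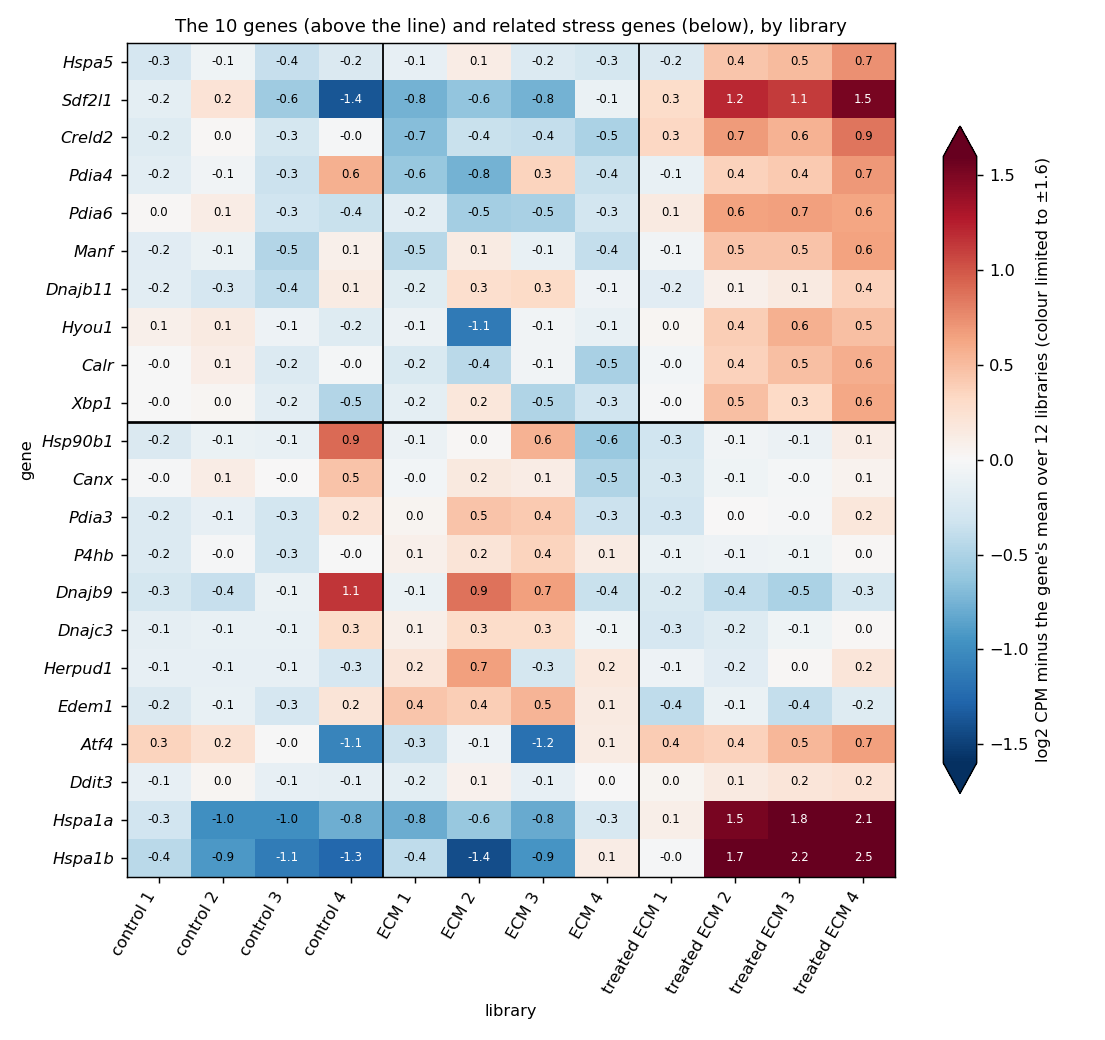
Log2 CPM minus each gene's mean over 12 libraries (colour and printed value) for the 10 genes, above the line, and 12 related stress genes, below it, with libraries in columns by group. Treated libraries 2, 3 and 4 are red in every row above the line, treated library 1 lies between -0.23 and 0.325 there, Hspa1a and Hspa1b are also highest in treated libraries 2, 3 and 4, and Hsp90b1, Canx and Dnajb9 are highest in control library 4.

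ER-associated degradation clears misfolded chains from the ER. Of its 27 tested genes, 0 rose and 4 fell in treated against ECM, where 3.31% of all genes were called higher and 5.03% lower, with a median of -0.08. The 4 were Ufd1, which helps extract chains from the membrane (-0.73 ± 0.15, adjusted p = 0.0116), Edem1, which marks glycoproteins for degradation (-0.66 ± 0.15, adjusted p = 0.0208), the ER lectin gene Erlec1 (-1.17 ± 0.29, adjusted p = 0.0254) and the ubiquitin-conjugating enzyme gene Ube2j1 (-0.56 ± 0.14, adjusted p = 0.0320). Ufd1 was also the 1 gene of the list that rose in ECM against control (0.58 ± 0.15, adjusted p = 0.0252), and 0 were called in treated against control (4 at an unadjusted p below 0.05, 0 by DESeq2). Edem1 had 26.4, 28.4, 25.6 and 35.9 CPM in controls, 42.3, 40.6, 45.2 and 34.1 CPM in ECM and 23.3, 28.7, 23.7 and 26.9 CPM in treated libraries, so all treated values lay below all ECM values. With the GC correction 4 of the 27 again fell. Without control library 4 and ECM libraries 2 and 3, 4 fell and 2 rose. Of 42 genes of ER translocation and vesicle transport, 1 rose and 1 fell in treated against ECM. They were Lman2, a cargo lectin (0.46 ± 0.12, adjusted p = 0.0325), and Ssr3, a translocon subunit (-0.79 ± 0.21, adjusted p = 0.0401). Of 3 tested genes of the ER-resident Creb3 family, 0 were called by edgeR in any of the 3 comparisons, 1 was higher in ECM against control at an unadjusted p below 0.05, and DESeq2 called that number there and 0 elsewhere. With the GC correction 1 of 3 was called higher in ECM against control and 1 lower in treated against ECM, as was 1 of 4 tested in each without control library 4 and ECM libraries 2 and 3.

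Cytosolic heat shock chaperones, which the factor HSF1 induces, were examined as a neighbouring stress response. Of 27 tested, 7 rose and 1 fell in treated against ECM, where 3.31% of all genes were called higher and 5.03% lower, with a median of 0.09. In treated against control 3 rose and 0 fell, where 1.98% of all genes were called higher, with a median of 0.12. In ECM against control 0 rose and 2 fell, where 10.3% of all genes were called in either direction. Hspa1a, an inducible Hsp70, had 5.65, 3.51, 3.51 and 4.03 CPM in controls, 3.99, 4.57, 3.97 and 5.89 CPM in ECM and 7.51, 20.3, 24.4 and 31.1 CPM in treated libraries. Hspa1b, its near-identical copy, had 8.53, 6.07, 5.26 and 4.78 CPM in controls, 8.73, 4.26, 5.95 and 12.6 CPM in ECM and 11.4, 36.7, 54.5 and 67.2 CPM in treated libraries. Treated library 1 lay below ECM library 4 for Hspa1b, so these groups overlapped, while for Hspa1a all treated values lay above all others. Reads of the pair may be split between them. As for the 10 ER genes, treated library 1 was the lowest treated library for both. Hspa1a rose against ECM (log2 2.17 ± 0.36, adjusted p = 0.00363) and against control (log2 2.31 ± 0.36, adjusted p = 0.00254), as did Hspa1b (log2 2.42 ± 0.47 and 2.78 ± 0.48, adjusted p = 0.00807 and 0.00523). Dnajb1, the Hsp40 partner of Hsp70 in the cytosol, rose in both as well (0.75 ± 0.21 and 0.88 ± 0.21, adjusted p = 0.0416 and 0.0495). Chordc1 and Cryab, a cochaperone of Hsp90 and a small heat shock protein, fell in ECM against control (-1.18 ± 0.20 and -0.79 ± 0.20, adjusted p = 0.00131 and 0.0247) and rose in treated against ECM (1.15 ± 0.20 and 0.99 ± 0.20, adjusted p = 0.00447 and 0.0114).

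Of the 29 calls of single genes in the lists above that were followed through all settings, 15 held when each library was left out in turn and 14 did not. Those that held were of Atf3, Hspa1a and Hspa1b in each comparison named, of Cebpg, Eif2ak2 and Chordc1 in both of theirs, of Ppp1r15a in ECM against control, and of Ufd1 and Cryab in treated against ECM. Cdnf lost its calls without any of 11 libraries in ECM against control and any of 10 in treated against ECM, with adjusted p up to 0.127 and 0.125. In treated against ECM, Edem1 lost its call without any of 5 libraries, Erlec1 and Mthfd2 without any of 6, Ube2j1 and Lman2 without any of 7, Ppp1r15a without any of 8 and Ssr3 without any of 9, with adjusted p up to 0.144. In ECM against control, Ufd1 lost its call without control 1, 2 or 3, Slc3a2 without control 3 and Cryab without control 1 or 2 or ECM library 1 or 4, with adjusted p up to 0.0810. In treated against control, Wars lost its call without any of 7 libraries and Dnajb1 without any of 9, with adjusted p up to 0.193. The call of Dnajb1 in treated against ECM was not among those followed.

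**Figure D4:**
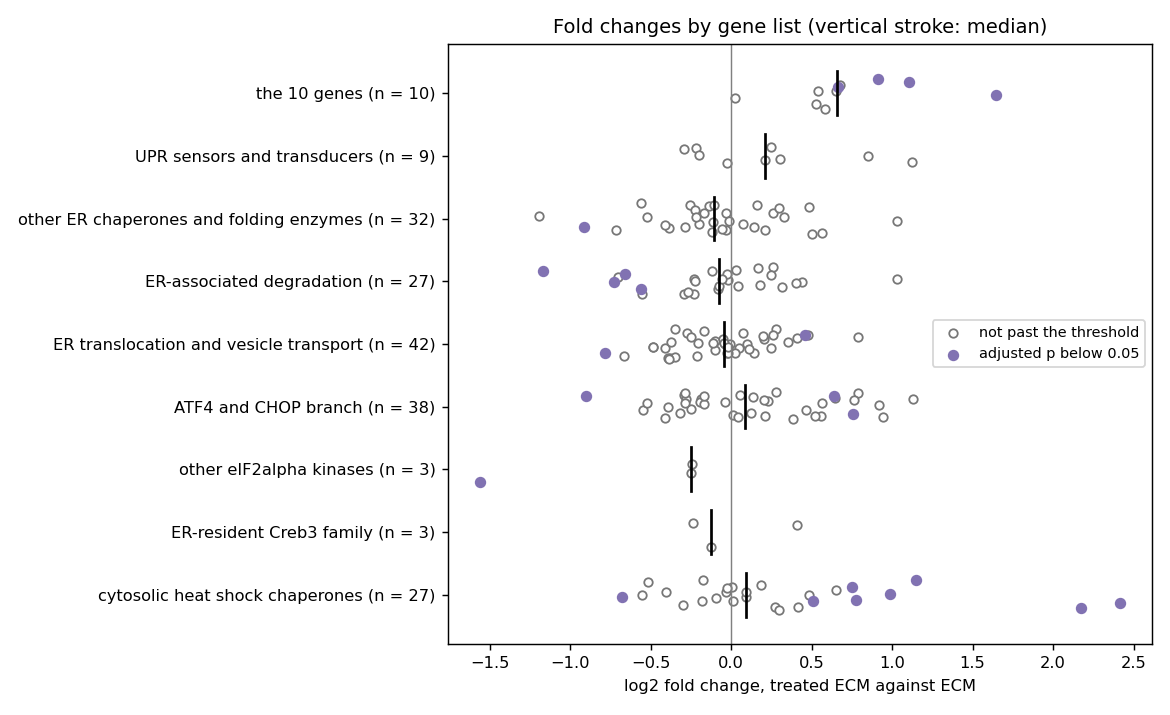
Log2 fold change in treated against ECM (horizontal axis) of every tested gene of the 10 ER genes and of 8 related lists, each point 1 gene, filled where the adjusted p was below 0.05, with a stroke at the median of each list. The 10 ER genes have a median of 0.66, while the medians of the other lists lie between -0.25 and 0.21.

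The mean profile of the 10 genes over the 12 libraries was compared with that of 9688 genes with a mean of at least 10 CPM, by the root mean square difference in centred log2 CPM. Among the 10 genes themselves, the difference from their mean profile was smallest for Calr (0.13) and largest for Sdf2l1 (0.55). Outside them the closest genes were Ahsa1, a cochaperone of Hsp90 (0.16), Nol12 (0.18), Srrt (0.18), Mthfd2 (0.20), Morn4 (0.20), Phf23 (0.20), Nop16 (0.21) and Oraov1 (0.21). Ahsa1 had 103 ± 11.1 CPM in control, 92.5 ± 6.61 in ECM and 132 ± 11.1 in treated libraries (SD, n = 4), given without a test because it was chosen for this pattern. This likeness is a description over 12 libraries that differ in group, depth and base composition.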

How the data were processed

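Brain RNA of the 12 samples was extracted with Trizol and made into libraries with a NEBNext Ultra kit, per the labels' protocols. Per the submitters' processing notes, reads went through Trimmomatic, FastQC and STAR with build mm10, and HTSeq gave the deposited count of reads per gene. The annotation was not given in the sources used here. Tables deposited by the authors for their comparisons also hold a log2 fold change and p-values per gene, per the file headers, and are quoted only where named.

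In 2212 genes with long names the deposited counts stood in the wrong columns and were moved back. In treated library 4 these counts differed from the authors' tables in 98 of 107 genes present in both, so these genes were fitted with 11 libraries. None of the 10 genes described was displaced. After TMM scaling and the filterByExpr filter, counts were tested with edgeR's quasi-likelihood test, all groups in 1 model (edgeR 4.0.16, R 4.3.3), with Benjamini-Hochberg adjustment over 14626 genes and a threshold of 0.05. Standard errors are the absolute log2 fold change divided by the square root of F. Levels are counts per 1000000 reads (CPM) with TMM-scaled library sizes, and levels per kilobase use exon lengths of GENCODE M21. DESeq2 1.42.0 was an alternative, and scripts were tested on simulated data. The depth of 13342177 to 18886822 reads gives Sdf2l1, the least abundant gene, 45 to 369 reads per library.

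Gene positions come from GENCODE M21 and promoters from RefSeq (GRCm38.p6), in which Manf and Hyou1 had no entry. The genes and lists were chosen with earlier results of these data known. Named genes are the 10, the sensors Ern1, Eif2ak3 and Atf6, the factors Atf4, Ddit3 and Atf3, up to 4 called genes per list and comparison by smallest adjusted p, and the 8 genes closest to the mean profile. Alternatives were another scaling, DESeq2, other filters, fewer libraries, the replicate number as a block, a cerebellum score and, added after seeing the data, a GC correction by loess.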

Additional observations from a re-analysis of the deposited data

Results flagged for a closer look

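The level of each of the 10 genes was checked for a library far from the other 3 of its group, in 30 sets of 4 libraries. Chance alone flags about 1 in 20 such sets, and 3 of 30 were flagged. Sdf2l1 in ECM library 4 was 7.52 CPM, while ECM libraries 1 to 3 lay between 4.74 and 5.19 CPM. Pdia6 in treated library 1 was 107 CPM, while treated libraries 2 to 4 lay between 151 and 153 CPM. Hyou1 in ECM library 2 was 44.0 CPM, while ECM libraries 1, 3 and 4 lay between 88.5 and 92.5 CPM.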

How the results depend on the processing

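In ECM against control, 0 of the 10 genes were called in every alternative run. In treated against ECM the 4 calls became 8 without control library 4 and ECM libraries 2 and 3 together, 6 with the cerebellum score, 3 in a fit of only the 8 libraries compared, and 3 to 5 when each library was left out in turn. In treated against control the 2 calls became 1 without a filter on low counts, 1 with the GC correction, 1 without those 3 libraries, 1 in a fit of only the 8 libraries compared, and 0 to 4 when each library was left out (4 without treated library 1). DESeq2 called 5 and 3. With the replicate number as a block the counts were 0, 3 and 0 in ECM against control, treated against ECM and treated against control. Libraries of the same number did not deviate together (correlations -0.614 to 0.30, median -0.056, against a median of -0.02 for unlike numbers), so the numbers were not taken as a pairing. Over all genes the 1502, 1220 and 298 calls became 1001, 540 and 219 with the block, 2823, 1795 and 408 with the cerebellum score, 2614, 2094 and 317 with the GC correction, 2763, 2269 and 468 without the 3 libraries, and 2014, 2158 and 464 by DESeq2. They were 866, 1061 and 312 in fits of 8 libraries, and 1067 to 1698, 551 to 2099 and 226 to 323 when each library was left out. Treated against ECM fell to 600, 551, 590 and 644 without treated libraries 1 to 4 and rose to 2099 without control library 4 and 1965 without ECM library 4.

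Signs turned only in differences that were not called. On the log2 scale, ECM against control turned to 0.021 (Sdf2l1) and 0.052 (Xbp1) with the cerebellum score, 0.001 (Eif2ak3) and 0.005 (Atf6) by DESeq2, 0.003 (Atf6) with DESeq2 size factors, 0.01 (Eif2ak3) and 0.083 (Atf6) without the 3 libraries, and -0.029 (Ddit3) with the GC correction. With 1 library left out it ran from -0.391 to 0.083 for Sdf2l1, -0.15 to 0.071 for Manf, -0.169 to 0.065 for Xbp1, -0.068 to 0.017 for Eif2ak3 and -0.203 to 0.15 for Atf6. Treated against ECM turned for Dnajb11 to -0.004 with DESeq2 size factors, -0.006 by DESeq2 and -0.023 with the GC correction. With 1 library left out it ran from -0.073 to 0.113 for Dnajb11, -0.069 to 0.007 for Eif2ak3 and -0.192 to 0.312 for Atf3. The causes were not tested. Depth was lowest for Sdf2l1, at 45 to 369 reads per library.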
